A study of Mus musculus with 12 samples.

Results

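The genes for 6 metabolite- and lipid-sensing receptors, Hcar2, Hcar1, Gpr84, Gpr65, Gpr183 and Ptafr, were followed through spinal cord RNA of 12 mice. They were grouped as receptors of microglia. The levels of Hcar1 did not follow the microglial markers in these libraries, and which cells it came from was not tested. They were taken by gene symbol, 6 of the 45906 genes in the count table, and all 6 were among the 20155 genes with enough counts to be tested. Each mouse gave 1 library, sequenced at 7 months of age, with 3 mice in each of 4 genotypes. Plekhg5+/+ mice carried the intact gene and no transgene, Plekhg5-/- mice lacked Plekhg5, Plekhg5+/+ SOD1-G93A mice carried human SOD1 with the G93A change as a transgene, and Plekhg5-/- SOD1-G93A mice carried the transgene without Plekhg5. The strains shared a C57BL/6 background, and mice of either sex were used without regard to it. The SOD1-G93A mouse is a model of amyotrophic lateral sclerosis, and the study used the low-copy line, in which disease progresses slowly. Plekhg5 encodes a guanine nucleotide exchange factor that acts in motoneuron autophagy. The study asked whether loss of Plekhg5 alters the microglial expression changes that the transgene brings.

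All 6 receptors span the membrane and signal through heterotrimeric G proteins. Hcar2 senses the ketone body beta-hydroxybutyrate and nicotinic acid, Hcar1 senses lactate, Gpr84 is activated by medium-chain fatty acids, Gpr65 by extracellular protons, Gpr183 by dihydroxylated oxysterols, and Ptafr by platelet-activating factor, an ether-linked phospholipid. Several of them are known from macrophages and microglia, where inflammatory stimuli raise Hcar2 and Gpr84, whereas Hcar1 is best known from adipocytes. Whole spinal cord was sequenced, so fewer cells of a type and less RNA per cell cannot be told apart in any value given here.

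Hcar2 and Hcar1 are neighbours on the minus strand of chromosome 5 and close relatives, so a short read could in principle fit both. In GRCm38.p6 Hcar2 lies at chr5:123863570-123865516 and Hcar1 at chr5:123876736-123880020, 11219 bases apart, and each is a single exon. Their coding sequences, of 360 and 351 codons, were 61.5% identical over 1100 alignment columns, with a longest shared run of 18 bases. The most alike pair of windows of read length, 75 bases without gaps, still differed at 15 positions. Both windows are shown 5′ to 3′ on the coding strand, with the differing bases in capitals. They are the closest approach of the 2 coding sequences over the length of a read. The untranslated parts of the 2 genes were not searched for near matches.
Hcar2, coding bases 545 to 619, GRCm38 chr5:123864820-123864894, minus strand: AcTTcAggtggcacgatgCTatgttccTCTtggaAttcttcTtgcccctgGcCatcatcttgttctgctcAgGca
Hcar1, coding bases 542 to 616, GRCm38 chr5:123879011-123879085, minus strand: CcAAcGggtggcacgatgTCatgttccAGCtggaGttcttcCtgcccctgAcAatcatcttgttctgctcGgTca
Exact shared stretches were searched from 1 GENCODE transcript per gene, of 2 for Gpr183. No stretch of 75 bases from these transcripts of Hcar2, Hcar1, Gpr84, Gpr65 or Gpr183 occurred in a transcript of another gene. For Ptafr 15 of 3563 such stretches did, and its count was fractional in 5 of the 12 libraries, against 1 library for Hcar2 and none for the other 4.

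The remaining genes lie apart. Gpr84 is at chr15:103308233-103310670 on the minus strand and Gpr65 at chr12:98268635-98276722 on the plus strand. Gpr183, at chr14:121952331-121965193 on the minus strand, lies inside Ubac2, which runs on the opposite strand, and reads were counted by strand. Ptafr, at chr4:132564067-132582683 on the plus strand, is on the same chromosome as Plekhg5, 19.5 Mb away. The coding sequence of each of these 4 is held by 1 of 2 exons.

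The libraries held 30415643 to 38743628 counts. Plekhg5 ranged from 19.4 to 24.96 CPM (counts scaled to a common library size) in the 6 Plekhg5+/+ libraries with and without the transgene and from 3.28 to 4.72 CPM in the 6 Plekhg5-/- libraries. Human SOD1 ranged from 4421 to 5638 CPM with the transgene and from 0.153 to 5.47 CPM without it. Y-linked transcripts were present in 3 Plekhg5+/+, 2 Plekhg5-/-, 2 Plekhg5+/+ SOD1-G93A and 1 Plekhg5-/- SOD1-G93A library of 3 each. The 16 microglial markers, among them Csf1r, Cx3cr1 and Tmem119, summed to 607 to 690 CPM in Plekhg5+/+, 655 to 888 CPM in Plekhg5-/-, 1109 to 2020 CPM in Plekhg5+/+ SOD1-G93A and 843 to 924 CPM in Plekhg5-/- SOD1-G93A mice. No marker of any list was at 0 in all 12 libraries.

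The receptors were scarce transcripts, with 4 to 188 counts in any library. Levels of different genes were compared as RPKM, which is CPM divided by the exon length in kilobases. In Plekhg5+/+ mice the order of mean RPKM was Gpr183 (0.483 ± 0.052, SD, n = 3), Gpr84 (0.458 ± 0.134), Ptafr (0.353 ± 0.074), Gpr65 (0.309 ± 0.048), Hcar1 (0.272 ± 0.158) and Hcar2 (0.154 ± 0.075). In the transgenic mice with intact Plekhg5 it was Gpr84 (1.76 ± 0.70), Hcar2 (1.23 ± 0.88), Gpr183 (1.18 ± 0.50), Ptafr (1.08 ± 0.49), Gpr65 (0.827 ± 0.464) and Hcar1 (0.224 ± 0.069). Hcar2 was thus lowest in the first order and next after Gpr84 in the second, where Hcar1 came last. That place of Hcar2 rested on Plekhg5+/+ SOD1-G93A mouse 1, without which its mean was 0.733 RPKM, below Gpr183 (0.900) and Ptafr (0.812). In Plekhg5-/- SOD1-G93A mice the order was Gpr84 (0.940 ± 0.092), Gpr183 (0.670 ± 0.123), Ptafr (0.669 ± 0.062), Gpr65 (0.520 ± 0.080), Hcar1 (0.338 ± 0.202) and Hcar2 (0.292 ± 0.121). Here the means of Hcar1 and Hcar2 differed by less than either SD. Without Plekhg5-/- SOD1-G93A mouse 2 their order turned, with Hcar1 at 0.239 and Hcar2 at 0.329 RPKM. No neighbours in the first order differed by more than both of their SDs. In the Plekhg5+/+ SOD1-G93A order only the step from Gpr65 to Hcar1 exceeded both SDs.

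**Figure D1:**
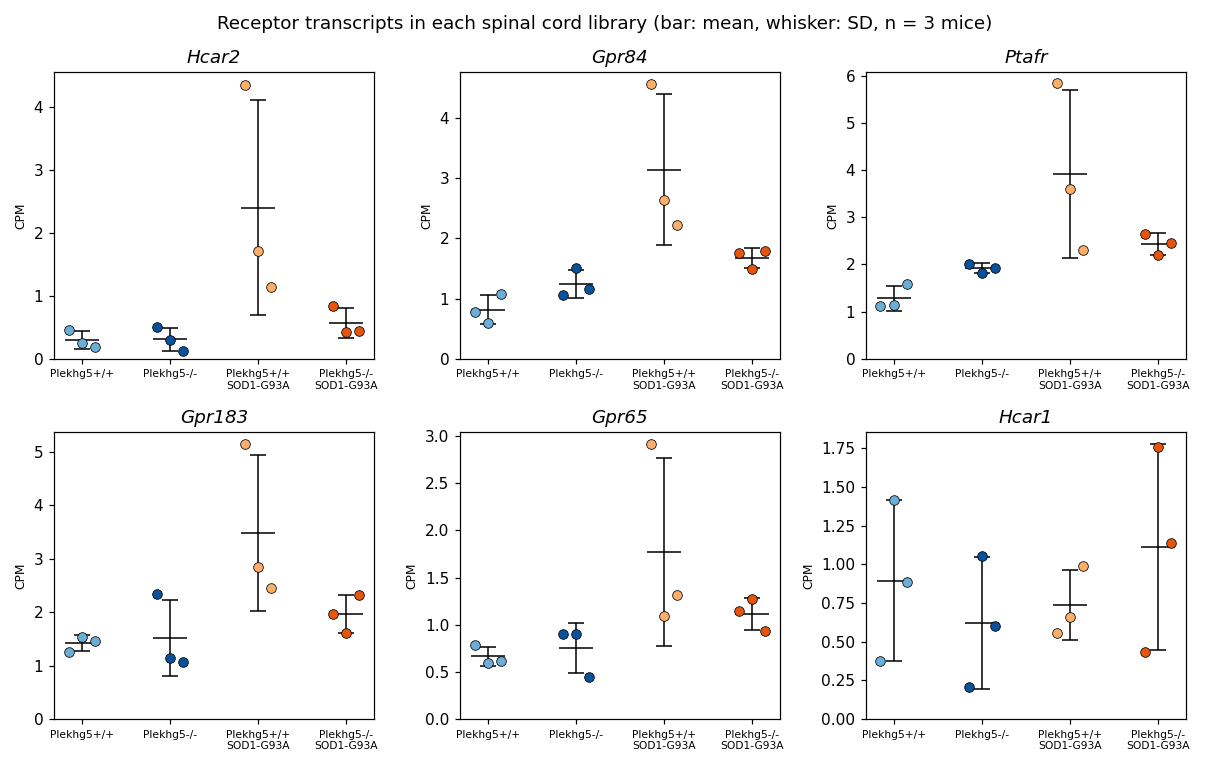
Level of each receptor transcript in CPM (y axis) in each of the 4 genotypes (x axis), with 1 point per mouse, a bar at the mean and a whisker of 1 SD, n = 3. For Hcar2, Gpr84, Ptafr, Gpr183 and Gpr65 all 3 Plekhg5+/+ SOD1-G93A points lie above the 3 Plekhg5+/+ points, and 1 transgenic mouse is the highest of the 12 in each of them.

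Hcar2 had the widest range. Its level was 0.464, 0.252 and 0.184 CPM in Plekhg5+/+ mice 1 to 3 and 0.497, 0.301 and 0.126 CPM in Plekhg5-/- mice. With the transgene it was 4.35, 1.72 and 1.14 CPM in Plekhg5+/+ SOD1-G93A and 0.840, 0.425 and 0.440 CPM in Plekhg5-/- SOD1-G93A mice. The 3 Plekhg5+/+ SOD1-G93A libraries were above all other 9, and the other 3 genotypes overlapped with one another. The study showed Hcar2 among genes it had selected from these same libraries, so its values are not independent evidence of a direction.

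Hcar1, the lactate receptor, followed another order. It was at 0.377, 1.42 and 0.888 CPM in Plekhg5+/+, 0.205, 1.05 and 0.599 CPM in Plekhg5-/-, 0.559, 0.660 and 0.990 CPM in Plekhg5+/+ SOD1-G93A and 0.432, 1.76 and 1.14 CPM in Plekhg5-/- SOD1-G93A mice. All 4 genotypes overlapped, and the spread between mice of 1 genotype was as wide as that between genotypes.

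Gpr84, the medium-chain fatty acid receptor, was at 0.783, 0.598 and 1.07 CPM in Plekhg5+/+ and 1.05, 1.51 and 1.17 CPM in Plekhg5-/- mice. It was at 4.57, 2.64 and 2.22 CPM in Plekhg5+/+ SOD1-G93A and 1.76, 1.49 and 1.79 CPM in Plekhg5-/- SOD1-G93A mice. The transgenic mice with intact Plekhg5 stood above all others. The Plekhg5-/- SOD1-G93A range met the upper end of the Plekhg5-/- range.

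Gpr65, the proton sensor, was at 0.783, 0.598 and 0.612 CPM in Plekhg5+/+, 0.907, 0.904 and 0.442 CPM in Plekhg5-/-, 2.92, 1.09 and 1.32 CPM in Plekhg5+/+ SOD1-G93A and 1.14, 1.28 and 0.932 CPM in Plekhg5-/- SOD1-G93A mice. The 2 transgenic genotypes overlapped, and both lay above the 2 genotypes without the transgene.

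Gpr183, the oxysterol receptor, was at 1.25, 1.54 and 1.47 CPM in Plekhg5+/+, 2.34, 1.14 and 1.07 CPM in Plekhg5-/-, 5.16, 2.84 and 2.46 CPM in Plekhg5+/+ SOD1-G93A and 1.97, 1.61 and 2.33 CPM in Plekhg5-/- SOD1-G93A mice. The Plekhg5+/+ SOD1-G93A mice were again above the other 9, and Plekhg5-/- mouse 1 lay above both other mice of its genotype.

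Ptafr, the receptor of platelet-activating factor, was at 1.12, 1.14 and 1.59 CPM in Plekhg5+/+, 2.02, 1.82 and 1.92 CPM in Plekhg5-/-, 5.84, 3.60 and 2.31 CPM in Plekhg5+/+ SOD1-G93A and 2.65, 2.20 and 2.45 CPM in Plekhg5-/- SOD1-G93A mice. Here every Plekhg5-/- mouse was above every Plekhg5+/+ mouse, and the 2 transgenic genotypes overlapped.

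In Plekhg5+/+ SOD1-G93A against Plekhg5+/+ mice, Hcar2, Gpr84 and Ptafr rose. Hcar2 was 7.86-fold higher (log2 fold change 2.97, SE 0.56, adjusted p = 0.0203), Gpr84 3.83-fold (1.94, SE 0.29, adjusted p = 0.0125) and Ptafr 3.06-fold (1.61, SE 0.28, adjusted p = 0.0163), by edgeR's quasi-likelihood test with Benjamini-Hochberg adjustment over all genes tested. Of all genes tested, 2.09% were called higher in this comparison. Gpr65 and Gpr183 did not pass the adjusted threshold of 0.05, at log2 fold changes of 1.41 (SE 0.37, adjusted p = 0.0639) and 1.29 (SE 0.32, adjusted p = 0.0564). Hcar1 was at −0.26 (SE 0.60, adjusted p = 0.862), and at 0.23 without Plekhg5+/+ mouse 2. The groups did not overlap, with the transgenic mice higher, for 5 of the 6 genes, all but Hcar1, and this was so for 11.6% of all genes tested.

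The calls rested on few mice. Leaving out Plekhg5+/+ mouse 1 or Plekhg5+/+ mouse 2 left 0 of the 6 called, with 4 and 2 calls among all genes, and Hcar2 was also lost without Plekhg5+/+ mouse 3 (adjusted p = 0.0509). Without Plekhg5+/+ SOD1-G93A mouse 1, the highest library for 5 of the 6 genes, all 3 calls stood while the Hcar2 log2 fold change fell to 2.22. With single libraries left out, the log2 fold change of Hcar2 ran from 2.22 to 3.44, the maximum being without Plekhg5+/+ mouse 1. That of Gpr84 ran from 1.56 to 2.16 and that of Ptafr from 1.21 to 1.89. The highest adjusted p in these edgeR fits was 0.116 for Hcar2, 0.0916 for Gpr84 and 0.0987 for Ptafr. DESeq2, with its fold-change prior as the study used it, called Gpr65 and Gpr183 as well, 5 of 6 in all, and called 4.18% of the genes it tested higher. In contrast, edgeR on the 2 genotypes alone called 0 of 6 and 3 genes in all.

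**Figure D2:**
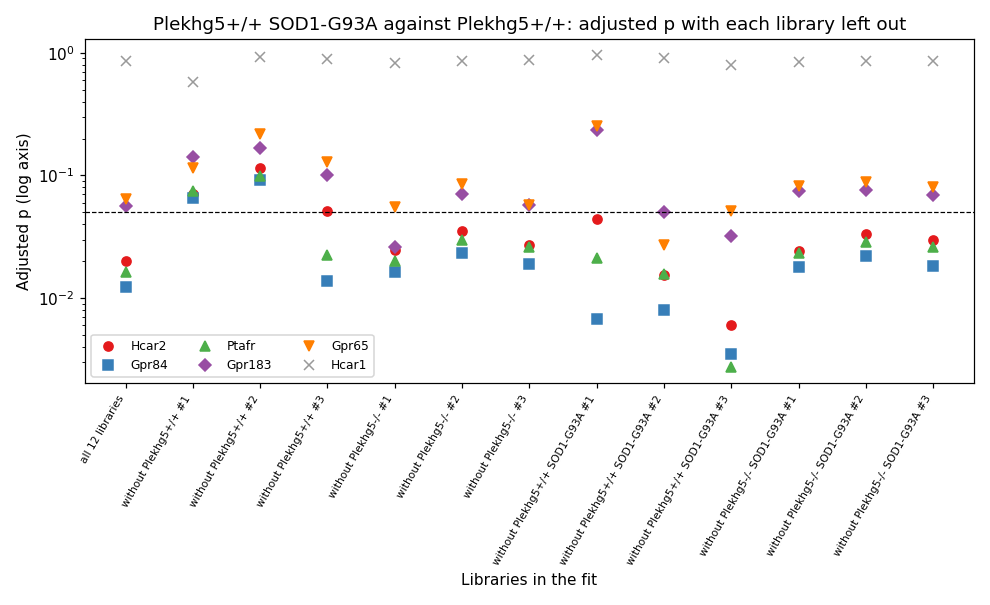
Adjusted p of each receptor gene for Plekhg5+/+ SOD1-G93A against Plekhg5+/+ (y axis, log scale) in edgeR fits to all 12 libraries and with each library left out (x axis), with a dashed line at 0.05. Without Plekhg5+/+ mouse 1 or 2 no receptor lies under the line, and Hcar1 is far above it in every fit.

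In Plekhg5-/- SOD1-G93A against Plekhg5+/+ SOD1-G93A mice none of the 6 passed the test. The same Plekhg5+/+ SOD1-G93A libraries enter this comparison and the one before it, with opposite sign. Hcar2 had a log2 fold change of −2.09 (SE 0.51, adjusted p = 0.402), which is 4.25-fold lower without Plekhg5. Gpr84 was at −0.90 (SE 0.27, adjusted p = 0.422), Gpr183 at −0.82 (SE 0.31, adjusted p = 0.517), Ptafr at −0.69 (SE 0.27, adjusted p = 0.517) and Gpr65 at −0.67 (SE 0.35, adjusted p = 0.589). Hcar1 was at 0.59 (SE 0.58, adjusted p = 0.755).

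At an unadjusted p under 0.05 were 4 of the 6, namely Hcar2, Gpr84, Gpr183 and Ptafr, and 1741 of all genes. The Plekhg5-/- SOD1-G93A mice lay wholly below the Plekhg5+/+ SOD1-G93A mice for Hcar2, Gpr84 and Gpr183, 3 of 6, against 10% of all genes tested. The edgeR test called 0.0198% of all genes lower here. DESeq2 with the prior called Hcar2 (adjusted p = 0.000962, log2 fold change shrunk to −0.42) and no other of the 6, and called 0.413% of its tested genes lower. Without the prior it again called Hcar2 alone (adjusted p = 0.0491), with 0.243% of its tested genes called lower. Without Plekhg5+/+ SOD1-G93A mouse 1 the edgeR log2 fold changes were −1.34 for Hcar2, −0.53 for Gpr84, −0.42 for Gpr183, −0.28 for Ptafr and −0.12 for Gpr65.

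Loss of Plekhg5 alone, Plekhg5-/- against Plekhg5+/+, left no receptor past the test. The edgeR log2 fold changes were 0.60 for Gpr84 (SE 0.30, adjusted p = 0.948), 0.59 for Ptafr (SE 0.29, adjusted p = 0.945), 0.18 for Gpr65, 0.10 for Gpr183, 0.04 for Hcar2 and −0.52 for Hcar1. The 2 groups did not overlap for Ptafr, with Plekhg5-/- mice higher, as for 4.71% of all genes tested. Called in either direction were 0.0298% of all genes, and at an unadjusted p under 0.05 were 1073 genes and 0 of the 6. DESeq2 with its prior also called 0 of the 6, and 0.144% of its tested genes.

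The transgene effect without Plekhg5, Plekhg5-/- SOD1-G93A against Plekhg5-/-, was above 0 for all 6 and passed the test for none. Hcar2 had a log2 fold change of 0.84 (SE 0.63), Hcar1 of 0.84 (SE 0.59), Gpr65 of 0.56 (SE 0.37), Gpr84 of 0.43 (SE 0.28), Gpr183 of 0.37 (SE 0.33) and Ptafr of 0.34 (SE 0.28), each at an adjusted p of 0.950 in edgeR. The groups did not overlap for Gpr65 and Ptafr, 2 of 6, against 7.26% of all genes tested. Among all genes 0.00496% were called higher, 1084 had an unadjusted p under 0.05, and 0 of the 6 did. DESeq2 with its prior called 0 of the 6 either, and 0.163% of its tested genes higher.

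**Figure D3:**
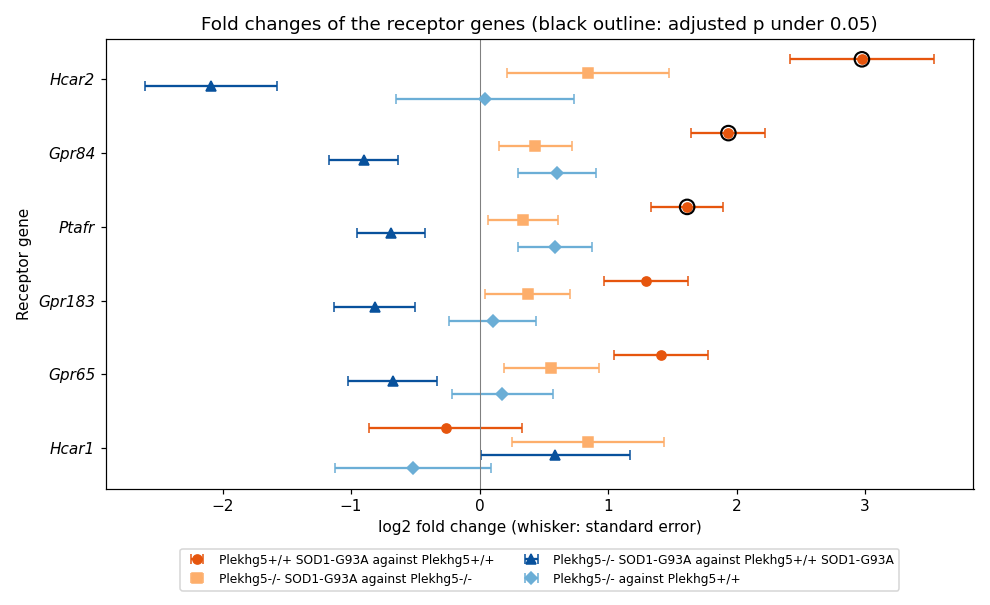
Log2 fold change of each receptor gene (x axis, whisker 1 SE of the edgeR fit) in 4 comparisons of genotypes, n = 3 mice each, with calls at an adjusted p under 0.05 outlined in black. The outlined points are Hcar2, Gpr84 and Ptafr in Plekhg5+/+ SOD1-G93A against Plekhg5+/+, where Hcar1 lies below 0 with a whisker that crosses it, and its sign turns without Plekhg5+/+ mouse 2.

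Averaged over both Plekhg5 genotypes, the transgene raised Gpr84 (log2 fold change 1.18, SE 0.20, adjusted p = 0.0274) and Ptafr (0.98, SE 0.20, adjusted p = 0.0377), while 1.14% of all genes were called higher. Hcar2 missed the threshold at 1.91 (SE 0.42, adjusted p = 0.0516), as did Gpr65 at 0.99 (SE 0.26, adjusted p = 0.0870), Gpr183 at 0.83 (SE 0.23, adjusted p = 0.0953) and Hcar1 at 0.29 (SE 0.42, adjusted p = 0.836). This count too depended on single mice. It was 0 without Plekhg5+/+ mouse 1 or 2, Plekhg5-/- mouse 3 or Plekhg5-/- SOD1-G93A mouse 1 or 2, it was 1 without Plekhg5+/+ mouse 3, Plekhg5-/- mouse 2 or Plekhg5-/- SOD1-G93A mouse 3, and 4 without Plekhg5+/+ SOD1-G93A mouse 2. DESeq2 with its prior called 5 of the 6, all but Hcar1, and 3.17% of its tested genes higher.

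Whether the transgene effect differed between the Plekhg5 genotypes was tested as an interaction, which none of the 6 passed. The interaction was −2.13 on the log2 scale for Hcar2 (SE 0.87, adjusted p = 0.501), −1.50 for Gpr84 (SE 0.40, adjusted p = 0.375) and −1.28 for Ptafr (SE 0.39, adjusted p = 0.406). These 3 had an unadjusted p under 0.05, as had 1824 of all genes. Gpr183 was at −0.92 (SE 0.46), Gpr65 at −0.85 (SE 0.53) and Hcar1 at 1.11 (SE 0.84), with adjusted p from 0.566 to 0.662. Among all genes 0% were called by edgeR, and DESeq2 with its prior called 0 of the 6 and 0.611% of its tested genes.

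Microglial markers moved with the receptors. In Plekhg5+/+ SOD1-G93A against Plekhg5+/+ mice 13 of the 16 rose, among them Fcrls (log2 fold change 2.26), Trem2 (1.79) and C1qa (1.57), with a median of 1.09 against −0.00099 over all genes. In Plekhg5-/- SOD1-G93A against Plekhg5+/+ SOD1-G93A mice all 16 had values below 0, with a median of −0.57, and 0 passed the test. Set against the summed microglial markers, Hcar2 was at 0.266 to 0.681 CPM per 1000 marker CPM in Plekhg5+/+, 0.193 to 0.560 in Plekhg5-/-, 0.976 to 2.15 in Plekhg5+/+ SOD1-G93A and 0.478 to 0.910 in Plekhg5-/- SOD1-G93A mice. On this scale too the 3 Plekhg5+/+ SOD1-G93A mice were above the other 9.

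Gpr84 on the same scale was at 0.985 to 1.55 in Plekhg5+/+, 1.19 to 1.96 in Plekhg5-/-, 1.90 to 2.38 in Plekhg5+/+ SOD1-G93A and 1.67 to 2.12 in Plekhg5-/- SOD1-G93A mice, so both transgenic genotypes lay above Plekhg5+/+ and overlapped each other. For Ptafr (1.64 to 2.31 in Plekhg5+/+ and 1.98 to 3.25 in Plekhg5+/+ SOD1-G93A mice), Gpr183 (1.83 to 2.54 and 2.11 to 2.56) and Gpr65 (0.887 to 1.15 and 0.982 to 1.45) these 2 genotypes overlapped. Hcar1 was at 0.554 to 2.33 in Plekhg5+/+ and 0.277 to 0.848 in Plekhg5+/+ SOD1-G93A mice. These ratios are descriptions with no test.

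**Figure D4:**
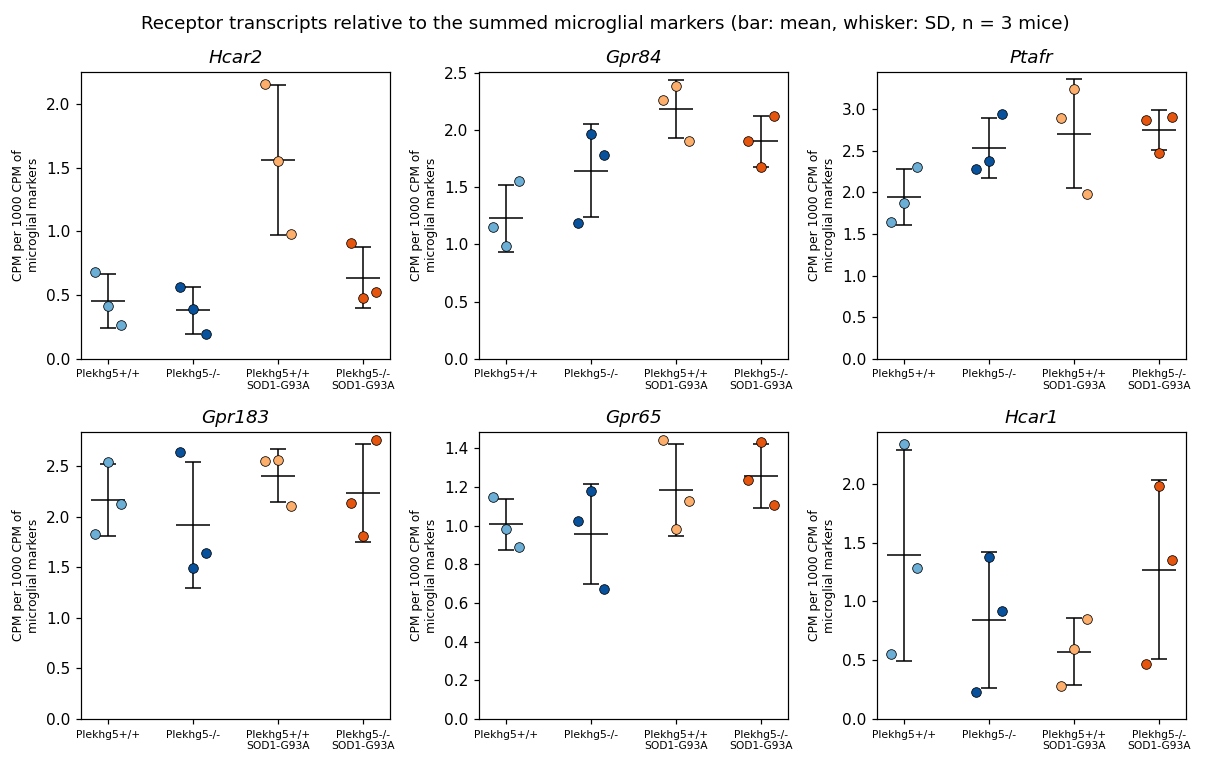
Level of each receptor transcript per 1000 CPM of the 16 summed microglial markers (y axis) in the 4 genotypes (x axis), with 1 point per mouse, a bar at the mean and a whisker of 1 SD, n = 3. The Plekhg5+/+ SOD1-G93A points stand apart from all others for Hcar2, while they overlap with those of Plekhg5+/+ mice for Ptafr, Gpr183, Gpr65 and Hcar1.

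Markers of other cells that could carry these receptors were also counted. The 7 neutrophil markers summed to 12.3 to 59.5 CPM in Plekhg5+/+, 26.0 to 69.5 CPM in Plekhg5-/-, 38.7 to 132 CPM in Plekhg5+/+ SOD1-G93A and 20.02 to 224 CPM in Plekhg5-/- SOD1-G93A mice. None of them passed in Plekhg5+/+ SOD1-G93A against Plekhg5+/+ mice, with a median log2 fold change of 1.88. The 5 monocyte and 6 border macrophage markers passed in 0 cases, at medians of 0.12 and −0.27. The 9 T and NK cell markers summed to 1.23 to 2.10 CPM in Plekhg5+/+, 1.74 to 1.90 CPM in Plekhg5-/-, 3.17 to 3.78 CPM in Plekhg5+/+ SOD1-G93A and 2.29 to 7.53 CPM in Plekhg5-/- SOD1-G93A mice, so both transgenic genotypes were above the others. Of these 9, 4 were tested and 0 passed in Plekhg5+/+ SOD1-G93A against Plekhg5+/+ mice, with all 4 above 0 at a median log2 fold change of 1.13, while Lck passed over both genotypes (0.91, adjusted p = 0.0401). The 4 B cell markers summed to between 0.609 and 4.26 CPM over the 12 libraries, with the maximum in Plekhg5+/+ SOD1-G93A mouse 1, and 1 of them, Cd79b, rose (log2 fold change 1.84). Gfap was the 1 astrocyte marker of 8 that rose (1.23). The part of any of these cells in the receptor values was not tested.

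Markers of adipocytes, the cells Hcar1 is best known from, summed over 4 genes to 0.585 to 110 CPM. Both ends of that range were in Plekhg5-/- mice, where mouse 1 had the lowest sum and the lowest Hcar1 (0.205 CPM) and mouse 2 the highest sum and the highest Hcar1 of its genotype (1.05 CPM). In Plekhg5+/+ mice the order was the other way, as mouse 1 had the highest sum (15.7 CPM) and the lowest Hcar1 (0.377 CPM). In Plekhg5+/+ SOD1-G93A mice mouse 3 had both the highest sum (5.43 CPM) and the highest Hcar1 (0.990 CPM). The highest Hcar1 of the 12 libraries (1.76 CPM) was in Plekhg5-/- SOD1-G93A mouse 2, with a sum of 1.18 CPM. The part of adipocytes in the Hcar1 values was not tested.

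Next the libraries were searched for transcripts with the most similar profile, measured as the root mean square difference of centred log2 CPM over the 12 libraries, where 0 means the same profile. For Hcar2 these were the chemokine gene Ccl2 (0.398), Fcrls (0.406), a microglial marker, and Pdcd1 (0.439), which encodes the immune receptor PD-1. For Ptafr they were Plek (0.166), which encodes pleckstrin, the immunoproteasome gene Psmb9 (0.166) and Tlr9 (0.173), a receptor for unmethylated DNA. For Gpr84 they were Naip2 (0.218), an inflammasome sensor, the metalloproteinase gene Mmp19 (0.223) and Ptafr itself (0.228). The scale differed by receptor. The median difference over all genes tested was 1.24 for Hcar2, 0.786 for Hcar1 and 0.748 for Gpr84. It was 0.645 for Gpr65, 0.637 for Ptafr and 0.620 for Gpr183. Genes within 0.25 numbered 38 for Gpr65, 29 for Ptafr, 10 for Gpr84, 5 for Gpr183 and 0 for Hcar2 and Hcar1.

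Gpr65 was nearest to Xlr (0.173), Tbxas1 (0.196), which encodes thromboxane synthase, and S100a6 (0.198), a calcium-binding protein gene. Gpr183 was nearest to Sash3 (0.192), Blnk (0.228), an adaptor of immune receptor signalling, and Abi3 (0.238). Hcar1 was nearest to Arsi (0.385), an arylsulfatase gene, Slc6a13 (0.402), a GABA and taurine transporter of the meninges, and Islr (0.407), known from fibroblasts. Between the 6 receptors the closest pair was Gpr84 and Ptafr, Hcar2 was between 0.714 and 0.811 from Gpr84, Gpr65, Gpr183 and Ptafr, and Hcar1 was at least 1.01 from each of the others. In this measure too Hcar1 stood apart from the receptors it was grouped with.

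Among 40 further receptors for fatty acids, prostanoids, leukotrienes, lysophospholipids and related ligands, 28 were tested. In Plekhg5+/+ SOD1-G93A against Plekhg5+/+ mice 4 rose, none fell and the median log2 fold change was 0.19. Among all genes tested 2.09% were called higher and the median was −0.00099. Those named by size were Cnr2, the cannabinoid receptor of immune cells (1.84, SE 0.35, adjusted p = 0.0205), S1pr3, a sphingosine-1-phosphate receptor (1.28, SE 0.27, adjusted p = 0.0343), and Lpar5, a lysophosphatidic acid receptor (1.25, SE 0.23, adjusted p = 0.0197). The fourth, Gpr34, a lysophosphatidylserine receptor, is also among the microglial markers. Gpr4, a proton-sensing relative of Gpr65, did not pass the test, at a log2 fold change of −0.67 (SE 0.18, adjusted p = 0.0706).

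Genes that make or remove the ligands were counted next, by the same test that called 2.09% of all genes higher. Of 5 genes of oxysterol synthesis and removal, 10 of platelet-activating factor metabolism, 6 of ketone body metabolism and 6 of medium-chain fatty acid metabolism, 0 were called in Plekhg5+/+ SOD1-G93A against Plekhg5+/+ mice, and their median log2 fold changes were 0.28, 0.07, 0.07 and 0.02. Ch25h, which makes the precursor of the Gpr183 ligand, was at 0.64 (SE 0.60). Lpcat2, which makes platelet-activating factor, was at 0.43 (SE 0.12, adjusted p = 0.0810), and Bdh1, which interconverts ketone bodies, was at 0.25 (SE 0.06, adjusted p = 0.0591). Of 6 genes of lactate production and transport 1 rose, the monocarboxylate transporter gene Slc16a1 (0.41, SE 0.09, adjusted p = 0.0311). Of 22 G protein, regulator and arrestin genes 2 rose, Rgs1, which shortens G protein signalling (3.13, SE 0.38, adjusted p = 0.00982), and the beta subunit gene Gnb4 (0.48, SE 0.07, adjusted p = 0.0125), with a median of 0.06. In the 3 other comparisons of 2 genotypes and in the interaction, 0 genes of these lists passed the edgeR test. The study chose Gnb4 and Lpcat2, like the microglial marker Trem2, from these same libraries.

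RefSeq promoter entries for GRCm38.p6 matched 5 of the 6 genes, Hcar2 being the exception. The 250 bases before the start are shown for Gpr183, Gpr65 and Ptafr, 5′ to 3′ on the strand of the gene, since these 3 entries begin upstream of the annotated exon and their genes shared the Plekhg5+/+ SOD1-G93A maximum. The capitals in Gpr183 mark its motif match.
Gpr183, chr14:121965194-121965443, minus strand: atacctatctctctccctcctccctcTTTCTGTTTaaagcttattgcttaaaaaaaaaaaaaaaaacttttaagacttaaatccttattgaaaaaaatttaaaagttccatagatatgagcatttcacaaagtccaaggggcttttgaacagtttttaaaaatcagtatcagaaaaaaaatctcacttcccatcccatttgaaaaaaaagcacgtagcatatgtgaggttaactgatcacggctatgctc
Gpr65, chr12:98268385-98268634, plus strand: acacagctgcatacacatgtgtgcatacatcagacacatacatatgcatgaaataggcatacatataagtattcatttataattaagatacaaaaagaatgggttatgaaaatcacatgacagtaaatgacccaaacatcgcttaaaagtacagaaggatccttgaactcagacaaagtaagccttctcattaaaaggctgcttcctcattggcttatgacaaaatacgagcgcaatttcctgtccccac
Ptafr, chr4:132563817-132564066, plus strand: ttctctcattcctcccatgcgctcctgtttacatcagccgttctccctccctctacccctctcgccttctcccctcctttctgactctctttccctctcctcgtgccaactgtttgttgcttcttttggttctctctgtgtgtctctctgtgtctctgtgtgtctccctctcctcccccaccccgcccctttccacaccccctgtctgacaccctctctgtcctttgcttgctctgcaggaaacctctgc
Their base composition differed. The share of G and C was 32.0% for Gpr183, 36.8% for Gpr65, 46.0% for Gpr84, 56.0% for Ptafr and 62.4% for Hcar1, against a median of 52.4% over all promoters, which placed Gpr183 at percentile 2.38 and Gpr65 at percentile 6.74. The stretches of Gpr84 (chr15:103310439-103310688) and Hcar1 (chr5:123880004-123880253) overlapped the annotated genes, which reach to 103310670 and 123880020. In all, 5 motifs were searched on both strands. AAANNGAAA, of interferon-regulatory factors, occurred in Gpr183 at −224 to −216, read on the opposite strand, and in 9.37% of 32851 promoters. GAGGAAGT of PU.1 (2.44% of promoters), GGGACTTTC of NF-kB (0.289%), TGACGTCA of CRE-binding factors (1.55%) and TGACTCA of AP-1 (4.46%) were found in 0 of the 5 promoters. A match describes these letters only.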

How the data were processed

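Poly-A RNA of spinal cord was sequenced by the authors as single-end reads of 75 bases, with stranded libraries. According to the study's methods, reads were trimmed with Cutadapt (2.4), mapped with STAR (2.7.2b) to GRCm38.p6 with human SOD1 added, and counted on RefSeq exons by strand with featureCounts (1.6.4), and reads with several matches were shared as fractions. The table the authors deposited thus holds estimated counts for each gene, not normalized. Of these, 17.3 to 18.1% were fractional per library, and they were rounded here. Each library is 1 mouse. Total counts per library ranged from 30415643 to 38743628. With 4 to 188 counts per library, counting error is part of the spread of every receptor gene.

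Genes passing filterByExpr (20155 of 45906) were tested in edgeR 4.0.16 (TMM, robust quasi-likelihood fit, 4 genotypes, all 12 libraries) in R 4.3.3, with Benjamini-Hochberg adjustment over all of them and calls at 0.05. Log2 fold changes and SEs come from this fit. CPM and RPKM were computed from TMM-scaled library sizes and exon lengths. DESeq2 1.42.0, limma 3.58.1 (voom), other filters, rounding, scaling, a Y-linked covariate, the replicate block, only the 2 genotypes compared and each library left out were the alternatives. The fits were also run on counts simulated from the means and dispersions of the main fit.

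All 6 receptor genes are named. From each gene list up to 3 called genes of largest change are named with values, and for likeness the 3 nearest tested genes. Gpr34, Gpr4, Ch25h, Lpcat2, Bdh1 and Lck were named after their values were seen. The receptor genes and all lists were chosen with earlier results of these data known. No pair of libraries of a genotype was alike within sampling noise (chi-square per degree of freedom 5.79 to 28.4). The replicate numbers were not taken as pairs, since deviations of same-numbered libraries correlated at −0.163 to 0.318 and only 5 of 18 pairs were over 0.1. The highest were 0.318 (Plekhg5+/+ with Plekhg5-/-) and 0.298 (the 2 transgenic genotypes) among mice numbered 1. Next came 0.278 among mice numbered 2 (Plekhg5-/- with Plekhg5-/- SOD1-G93A). What same-numbered libraries share was not tested. Transcript and promoter sequences came from GENCODE and RefSeq for GRCm38, and coding sequences were aligned with Biopython 1.88.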

Additional observations from a re-analysis of the deposited data

Results flagged for a closer look

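For Gpr84 and Ptafr, the values for loss of Plekhg5 had opposite signs without and with the transgene. Every Plekhg5-/- mouse was above the Plekhg5+/+ mean and every Plekhg5-/- SOD1-G93A mouse was below the Plekhg5+/+ SOD1-G93A mean. None of the edgeR tests involved passed. Without the transgene the adjusted p was 0.948 for Gpr84 and 0.945 for Ptafr, and with it 0.422 and 0.517. The interaction on the log2 scale was −1.50 for Gpr84 and −1.28 for Ptafr, at adjusted p of 0.375 and 0.406, and without Plekhg5+/+ SOD1-G93A mouse 1 it was −1.13 and −0.87. In that mouse the microglial markers summed to 2020 CPM, against 1109 and 1168 CPM in the others of its genotype. The signs of Hcar2, Gpr65 and Gpr183 were also above 0 and then below 0, and those of Hcar1 the reverse. Microglial markers moved alike, with 14 of 16 above 0 for loss of Plekhg5 without the transgene, 0 of 16 above 0 with it, and a median interaction of −0.91. Their part in the values of Gpr84 and Ptafr was not tested.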

How the results depend on the processing

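In Plekhg5+/+ SOD1-G93A against Plekhg5+/+ mice 3 receptors and 498 genes in all were called. The count was 5 with DESeq2 with its prior (1200 calls among all genes, in either direction), without it (1159), at an adjusted p under 0.1 (1145), with the replicate block (631) and with DESeq2 on the 2 genotypes alone (755), a setting chosen after seeing the data. It was 4 with the Y-linked covariate (613), 2 with a minimum of 10 counts in every library (487) and 0 with edgeR on the 2 genotypes alone. Leaving out each library gave 0 to 4. In Plekhg5-/- SOD1-G93A against Plekhg5+/+ SOD1-G93A mice 0 became 1, always Hcar2, with DESeq2 with the prior (115 calls among all genes), without it (75) and on the 2 genotypes alone (180), and with the replicate block (8 calls, Hcar2 at an adjusted p of 0.0141), and stayed 0 when a library was left out. For the transgene over both genotypes 2 became 5 with DESeq2 with the prior (821 calls among all genes) or without it (822) and at an adjusted p under 0.1 (733). It became 4 with voom (612) and with the replicate block (417), and 3 with the Y-linked covariate (412). Single libraries left out gave 0 to 4. The counts of the 2 remaining comparisons and of the interaction were 0 in every setting. The cause of these shifts was not tested.

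The block pairs libraries by number only. Mouse 1 of each of the 4 genotypes had the highest Hcar2 and the lowest Hcar1 of its group, and with the block the SE of Hcar1 in the first comparison was 0.33 in place of 0.60. Directions turned for Gpr183 in Plekhg5-/- against Plekhg5+/+ with voom (−0.29) and without Plekhg5-/- mouse 1 (−0.35 to 0.30 over libraries left out), for Hcar2 there (−0.48 to 0.51), for Hcar1 in the first comparison (−0.64 to 0.23) and for Hcar1 over both genotypes with voom (−0.070) and with the Y-linked covariate (−0.017). None of these was a call. Of the other values for single genes, 781 kept direction and side of the threshold, 37 gained a call and 24 lost one. A minimum of 10 counts in every library left out Hcar1 and Hcar2.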
